A study of Xenopus laevis with 18 samples.

Results

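Heart field transcription factors are the DNA-binding proteins that mark the embryonic tissue from which the heart forms. The genes asked for were nkx2-5, hand1, isl1, tbx2, tbx3, tbx5 and tbx20, and their probe sets were chosen by name alone: the platform's probe annotation had to give 1 symbol that, without the ending .L or .S, was 1 of these 7. The rule found 5 genes, as 7 gene copies on 8 probe sets, out of 7545 genes on 12258 probe sets with 1 symbol and 23630 probe sets tested. No probe set carried the name of tbx5 or tbx20, and these genes are not analysed here. X. laevis is an allotetraploid frog, so many genes have a long (.L) and a short (.S) copy. The copies measured were hand1.L (probe set Xl2.1098.1.S1_at), isl1.S (Xl2.48014.1.A1_at), tbx2.L (Xl2.931.1.S1_at), tbx2.S (Xl2.29890.1.S1_at), tbx3.L (Xl2.538.1.S1_at), tbx3.S (Xl2.975.1.S1_at) and nkx2-5.S. The last had 2 probe sets, Xl2.1093.1.S1_at (called the first here) and Xl2.22859.1.A1_at (the second).

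Affymetrix X. laevis arrays were hybridised with RNA of whole embryos that had received either Gam1 mRNA or water as one-cell eggs. Gam1 is an avian adenovirus protein that has the enzyme activating SUMO destroyed, so that less of the small protein SUMO is attached to other proteins. The authors aimed to diminish this activity and not to eliminate it. They report suppression by 0.5 ng of Gam1 mRNA from early gastrula until late neurula, after measurable activity at late blastula. They describe the activity reached as undetectable, yet not lethal to the embryos. Gam1 embryos had received 0.5 ng of mRNA in 9.2 nL, and control embryos had received water. Both treatments were sampled at early gastrula (9 h after fertilization), late gastrula (13.5 h) and early neurula (16.5 h), with 3 biological replicates per treatment and stage, 6 groups and 18 arrays. Each array stands for 1 pool of 20 wild-type embryos, so differences between embryos of a pool are averaged. The controls carried no injected RNA, and an effect of injected RNA as such cannot be told apart from an effect of Gam1. The loss of the enzyme is an event at the protein level that these arrays do not measure.

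The vertebrate heart arises from lateral mesoderm that is specified during gastrulation and then comes to lie on either side of the anterior ventral midline. nkx2-5 encodes the homeodomain factor, related to tinman of Drosophila, that marks cardiac precursors and acts with GATA and T-box factors on heart genes. hand1 encodes a basic helix-loop-helix factor of lateral mesoderm and heart, and isl1 a LIM-homeodomain factor that in the mouse marks progenitors of the second heart field and also serves motor and sensory neurons. tbx2 and tbx3 encode T-box repressors that in the mouse keep chamber genes off in the atrioventricular canal and conduction system, and they are also active outside the heart, for example in the developing eye. None of these genes is restricted to the heart, and in whole embryos fewer cells of a type and less RNA per cell cannot be told apart.

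Values are deposited log2 signals, quantile normalised by the authors. Every array had a median of 7.72 and a range of 2.07 to 16.13, so a value near 2.07 lies at the floor of the scale. Where the means of all groups compared were under 4, levels are given and no direction is read from them. Levels of different probe sets are not compared, since probes differ in how well they hybridise, and whether a probe set reads 1 copy only was not tested. Pearson's r between arrays of the same group lay between 0.957 and 0.979 over all probe sets, and no array was left out. Gam1 and water arrays of a stage that carry the same replicate number deviated together from their group means, and their differences are therefore given as pairs.

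In water embryos the members appeared in 2 steps: tbx2 and tbx3 between early and late gastrula, and nkx2-5, hand1 and isl1 between late gastrula and early neurula. From early to late gastrula the log2 signal rose by 4.36 ± 0.54 (SE) for tbx2.L, by 4.72 ± 0.31 for tbx2.S, by 3.11 ± 0.40 for tbx3.L and by 3.35 ± 0.59 for tbx3.S in limma's fit of the 9 water arrays. These 4 of 8 probe sets passed an adjusted p of 0.05 (0.000332, 2.03e-05, 0.000436 and 0.00198), beside 24.0% of all probe sets that rose. The other 4 probe sets stayed between 2.07 and 4.16 at both gastrula stages.

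From late gastrula to early neurula, hand1.L rose in water embryos by 4.37 ± 0.54 (adjusted p = 0.00923) and isl1.S by 4.21 ± 0.31 (adjusted p = 0.00119). The first probe set of nkx2-5.S rose by 3.53 ± 0.42 (adjusted p = 0.00841) and the second by 2.93 ± 0.29 (adjusted p = 0.00424). The fifth call was tbx3.L, which rose by a further 1.91 ± 0.40 (adjusted p = 0.0352), and the 5 of 8 members called higher stood beside 4.09% of all probe sets. tbx3.S was higher by 1.62 ± 0.59 (adjusted p = 0.128), whereas tbx2.S and tbx2.L moved by 0.49 ± 0.31 and 0.16 ± 0.54 (adjusted p = 0.366 and 0.920). With only 2 water arrays per stage, 2, 0 and 1 member probe sets were called over this interval without replicates 1, 2 and 3, although each rise kept its direction. The share of all probe sets called in these smaller fits is not given, so the loss of calls is not read as particular to the members.

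Gam1 embryos ran through the same order. From early to late gastrula the same 4 probe sets of tbx2 and tbx3 were called higher, with rises of 3.86 ± 0.54 for tbx2.L, 3.81 ± 0.30 for tbx2.S, 2.22 ± 0.30 for tbx3.L and 2.54 ± 0.51 for tbx3.S, beside 22.7% of all probe sets. From late gastrula to early neurula 5 of 8 were called higher, beside 5.28% of all probe sets: both probe sets of nkx2-5.S (2.96 ± 0.45 and 2.54 ± 0.26), hand1.L (2.89 ± 0.62), tbx3.L (2.17 ± 0.30) and tbx3.S (2.29 ± 0.51). isl1.S was not among them, with a rise of 2.59 ± 0.94 and an adjusted p of 0.116. Its 3 Gam1 arrays at early neurula read 2.34, 6.11 and 6.34, and without replicate 1 the rise was 3.85 with an adjusted p of 0.00861. tbx2.S was higher by 1.05 ± 0.30 (adjusted p = 0.0604, and 0.0286 with the replicate number as a block). Without replicate 2 or 3, 0 of the 8 were called over this interval, and without replicate 1, 5 were. Here too the share of all probe sets called in the smaller fits is not given.

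**Figure D1:**
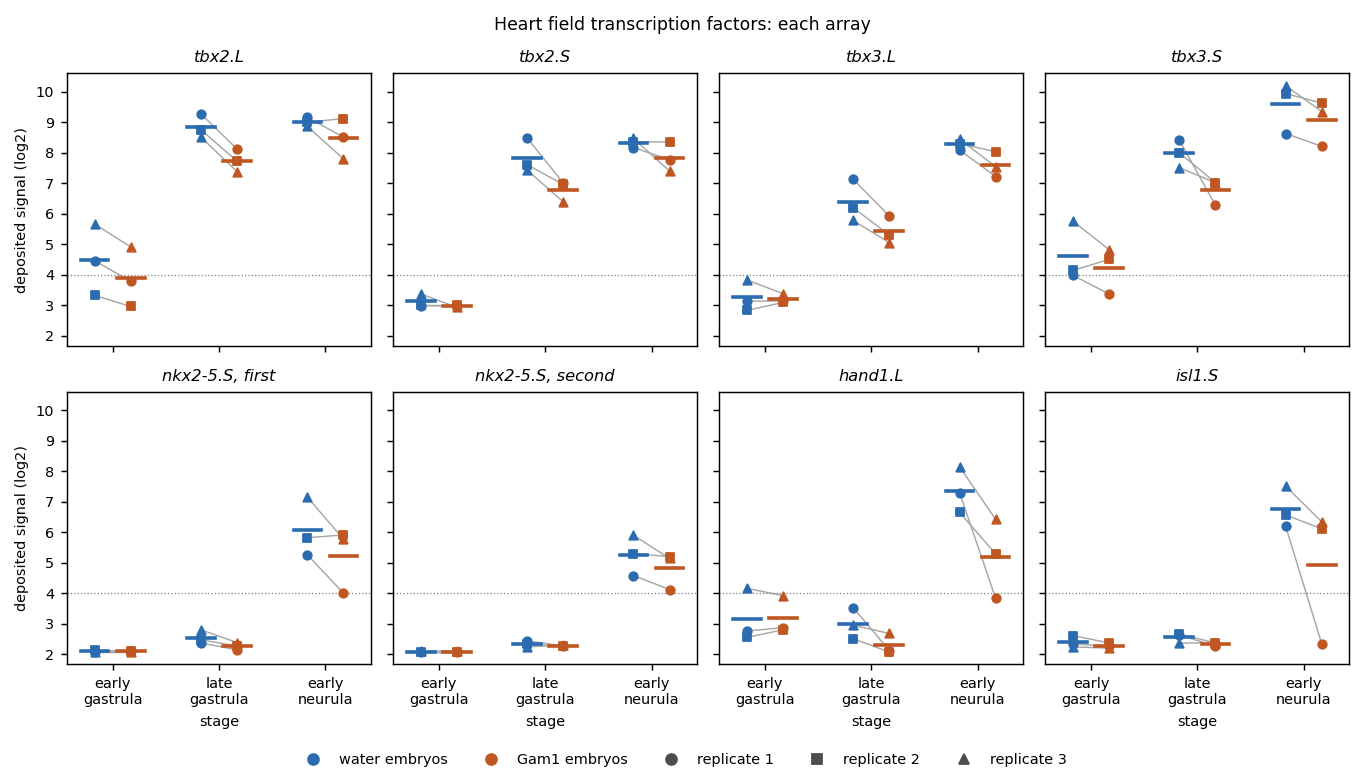
Deposited log2 signal (y axis) of the 8 probe sets at the 3 stages (x axis), with 1 point per array, symbols for the replicate number, thick bars for the mean of 3 arrays, grey lines joining arrays of the same number, and a dotted line at 4. tbx2 and tbx3 are up by late gastrula, nkx2-5, hand1 and isl1 only at early neurula, and most grey lines slope down from water to Gam1 where the signal is above the floor.

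The order of the group means was set by stage first. In all 4 probe sets of tbx2 and tbx3 the 2 early gastrula groups were lowest and overlapped, and the Gam1 group of late gastrula came next with no overlap. Late gastrula water followed in tbx2.S, tbx3.L and tbx3.S, apart from the Gam1 group of its stage in tbx2.S and tbx3.S and overlapping it in tbx3.L. The early neurula Gam1 group came next and overlapped late gastrula water in tbx2.S and tbx3.S, whereas in tbx3.L it stood apart from both its neighbours. In tbx2.L the early neurula Gam1 group (8.48) stood between late gastrula Gam1 (7.74) and late gastrula water (8.84), and its arrays overlapped those of both. For hand1.L, isl1.S and nkx2-5.S the 4 gastrula groups all had means under 4, and early neurula water stood highest. Its arrays lay apart from those of early neurula Gam1 for hand1.L only.

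At early gastrula the comparison of Gam1 with water embryos concerned only 2 members with a mean of 4 in a group, and neither passed an adjusted p of 0.05 in any fit run. tbx2.L read 3.78, 2.96 and 4.91 in Gam1 replicates 1 to 3 against 4.46, 3.32 and 5.66 in water. tbx3.S read 3.37, 4.50 and 4.82 in Gam1 against 3.98, 4.14 and 5.76 in water. The groups overlapped in both, and the replicates of 1 treatment spanned more than the treatments were apart: the differences were -0.60 ± 0.77 and -0.40 ± 0.63 (adjusted p = 1 for both). tbx2.L reached a mean of 4 in water embryos only (4.48, against 3.88 in Gam1 embryos), so its differences take in values under that cut. Within pairs it was lower each time, by -0.68, -0.37 and -0.74. Its error was 0.10 with the block inside the stage (unadjusted p = 0.0062, adjusted p = 0.426) and 0.20 in a fit of all 18 arrays with 9 pairs (unadjusted p = 0.0155, adjusted p = 0.529), and it was the 1 member of 8 at an unadjusted p of 0.05 in each. tbx3.S had the opposite sign without Gam1 replicate 1 (0.03) or water replicate 3 (0.16). The 8 members gave 0 calls at an adjusted p of 0.05 and 0 at an unadjusted p of 0.05, while all probe sets gave 0% and 0.284% lower. No member had all Gam1 arrays below all water arrays, beside 0.931% of all probe sets.

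At late gastrula, when tbx2 and tbx3 had come up, all 4 of their probe sets read lower in Gam1 embryos, by close to 1 on the log2 scale. tbx2.L read 8.12, 7.72 and 7.38 in Gam1 replicates 1 to 3 against 9.27, 8.75 and 8.51 in water. Every Gam1 array lay below every water array, and the 3 same-numbered pairs differed by -1.14, -1.03 and -1.13. The mean difference was -1.10 ± 0.29 (SE, 95% interval -1.83 to -0.37), a 2.14-fold lower signal, with an unadjusted p of 0.0112 and an adjusted p of 0.838 in limma's unpaired fit.

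The short copy, tbx2.S, read 7.01, 6.96 and 6.39 in Gam1 embryos against 8.49, 7.61 and 7.43 in water at late gastrula. Again the groups did not overlap, with differences of -1.48, -0.65 and -1.04 in the pairs. Its mean difference was -1.06 ± 0.37 (unadjusted p = 0.0327, adjusted p = 1). tbx3.S read 6.28, 7.02 and 7.02 in Gam1 embryos against 8.42, 8.00 and 7.51 in water, also with no overlap. Its pairs spread the most, from -2.14 in replicate 1 to -0.49 in replicate 3, around a mean of -1.20 ± 0.35 (unadjusted p = 0.0167, adjusted p = 0.936). tbx3.L read 5.92, 5.30 and 5.05 in Gam1 embryos against 7.13, 6.20 and 5.78 in water. The highest Gam1 array of tbx3.L lay above the lowest water array, yet each pair was lower (-1.21, -0.90 and -0.72), with a mean of -0.94 ± 0.45 (unadjusted p = 0.0863, adjusted p = 1).

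nkx2-5, hand1 and isl1 lay near the floor at late gastrula in both treatments. The probe sets of nkx2-5.S ranged from 2.14 to 2.80 and from 2.24 to 2.44, isl1.S from 2.27 to 2.66, and hand1.L from 2.07 to 3.53. Of the 8 members, 0 passed an adjusted p of 0.05 and 3 (tbx2.L, tbx2.S and tbx3.S) were lower at an unadjusted p of 0.05, beside 0% and 2.42% of all probe sets. The same 3 had no overlap between the groups, beside 5.21% of all probe sets with every Gam1 array below every water array.

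The pairing by replicate number changed the errors of these values. A fit of all 18 arrays with each of the 9 pairs as a block, which shares 1 estimate of the spread over the stages, left the differences as they were. Beside the unpaired fit it narrowed the errors of tbx2 and tbx3 at late gastrula. The errors of hand1, isl1 and nkx2-5, which lay near the floor, were wider in it. In this 9-pair fit tbx2.L (-1.10 ± 0.20, adjusted p = 0.0249), tbx3.L (-0.94 ± 0.18, 0.0331) and tbx2.S (-1.06 ± 0.22, 0.0429) were called lower and tbx3.S (-1.20 ± 0.33, 0.0843) was not. These 3 of 8 stood beside 2.2% of all probe sets called lower, and at an unadjusted p of 0.05 all 4 of tbx2 and tbx3 were lower, beside 12.3%. None of the 3 calls held when 1 replicate number was left out of the paired fit, where the adjusted p ranged from 0.119 to 0.289. With the block inside the 6 late gastrula arrays, 0 members passed an adjusted p of 0.05 and 5 were lower at an unadjusted p of 0.05, beside 7.76% of all probe sets. These were the 4 of tbx2 and tbx3 and the first of nkx2-5.S, whose means of 2.26 and 2.55 lay under 4 and give no direction.

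At early neurula every member had a mean above 4 in both treatments, and every mean was lower in Gam1 embryos, with the widest difference for hand1. hand1.L read 3.83, 5.29 and 6.42 in Gam1 replicates 1 to 3 against 7.30, 6.65 and 8.15 in water. The highest Gam1 array lay just below the lowest water array, and the pairs differed by -3.46, -1.36 and -1.73. The mean difference was -2.19 ± 0.77 (95% interval -4.13 to -0.24), a 4.55-fold lower signal, with an unadjusted p of 0.0336 and an adjusted p of 0.684. In the 9-pair fit it was -2.19 ± 0.38 with an adjusted p of 0.0158. That call held without replicate 1 (-1.55, adjusted p = 0.0270) and not without replicate 2 (-2.60, adjusted p = 0.109) or replicate 3 (-2.41, adjusted p = 0.125).

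The isl1 difference at early neurula rested on 1 array. isl1.S read 2.34, 6.11 and 6.34 in Gam1 embryos against 6.20, 6.57 and 7.51 in water, so that Gam1 replicate 1 stood at its gastrula level while the other 2 were within the range of, or just under, the water arrays. The pairs differed by -3.86, -0.46 and -1.17, and the mean difference was -1.83 ± 1.18 (adjusted p = 0.874). Without that array the difference was -0.53, and without both arrays of replicate 1 it was -0.81 (adjusted p = 1 for both). The same Gam1 pool was also the lowest of its group in 6 of the 8 member probe sets, where 37.5% of all probe sets had their lowest Gam1 value.

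nkx2-5 was near its water level in replicate 2 and lower in the others. Its first probe set read 4.00, 5.91 and 5.77 in Gam1 embryos against 5.26, 5.82 and 7.15 in water. Its second read 4.12, 5.20 and 5.14 against 4.58, 5.30 and 5.90. The groups overlapped on both, and the pairs of replicate 2 differed by 0.09 and -0.10 while those of replicate 3 differed by -1.38 and -0.77. The mean differences were -0.85 ± 0.74 and -0.44 ± 0.47 (adjusted p = 0.925 and 0.946). In the 9-pair fit the second was called lower (-0.44 ± 0.11, adjusted p = 0.0489) and the first, with the larger difference, was not (-0.85 ± 0.24, adjusted p = 0.0678). Without any 1 replicate number the second lost its call (adjusted p from 0.0993 to 0.230), whereas the first was called without replicate 2 (-1.32, adjusted p = 0.0183).

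For tbx2 and tbx3 the mean differences at early neurula were nearer to 0 in each copy than at late gastrula. tbx3.L read 7.22, 8.03 and 7.54 in Gam1 embryos against 8.09, 8.30 and 8.45 in water, with no overlap. Its difference was -0.68 ± 0.25 (unadjusted p = 0.0395, adjusted p = 0.709, and 0.0587 in the 9-pair fit). tbx3.S read 8.21, 9.63 and 9.35 against 8.63, 9.94 and 10.20, lower in every pair by -0.42, -0.31 and -0.85 although the groups overlapped. tbx2.L (8.51, 9.12 and 7.80 against 9.16, 9.00 and 8.86) and tbx2.S (7.77, 8.35 and 7.40 against 8.17, 8.36 and 8.47) overlapped as well. In both tbx2 copies Gam1 replicate 3 was lowest and the pair of replicate 2 was level, with differences of 0.12 and -0.01. The mean differences were -0.53 ± 0.57 for tbx3.S, -0.53 ± 0.35 for tbx2.L and -0.49 ± 0.27 for tbx2.S, with adjusted p-values of 0.949, 0.875 and 0.843.

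**Figure D2:**
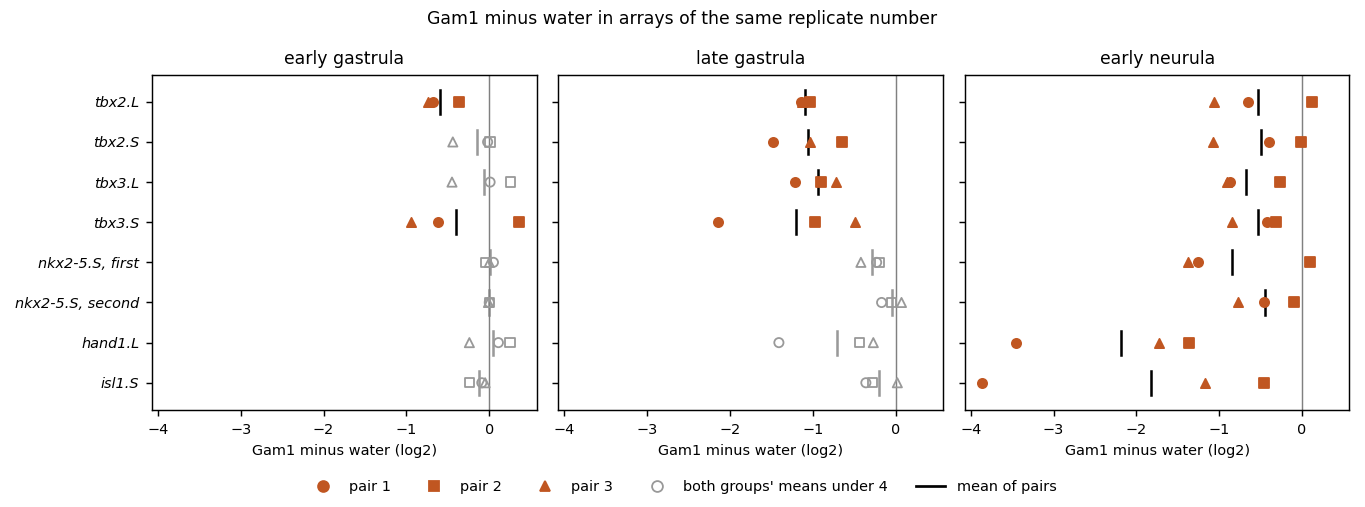
Gam1 minus water log2 signal (x axis) for arrays of the same replicate number, by probe set (y axis) and stage (panels), with 1 symbol per pair, a bar for the mean of 3 pairs, and open grey symbols where both group means were under 4. The 12 filled points at late gastrula all lie below 0, and at early neurula 22 of 24 do, with the pair of replicate 1 far to the left for hand1.L and isl1.S.

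Counted over the members, 12 of 12 pairs were lower in Gam1 embryos at late gastrula in the 4 probe sets that reached a mean of 4 in a group, and 22 of 24 at early neurula in all 8. At late gastrula 4 of the 4 probe sets were lower in all 3 pairs, and 6 of 8 were at the later stage, beside 22.9% and 24.1% of all probe sets with such a mean. The members share their pools, so these counts are not independent of each other. The median change of the 8 members was -0.83 at late gastrula and -0.61 at early neurula, where the median of all probe sets tested lay within 0.002 of 0. At late gastrula that median takes in the members with both means under 4, and the median of the 4 probe sets of tbx2 and tbx3 alone was -1.08.

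At early neurula 0 of 8 members were called at an adjusted p of 0.05 and 2 (hand1.L and tbx3.L) were lower at an unadjusted p of 0.05, beside 0% and 3.22% of all probe sets. The same 2 had no overlap between groups, beside 7.24% of all probe sets. The 9-pair fit called 2 of 8 lower (hand1.L and the second probe set of nkx2-5.S), beside 3.47%. At early gastrula it called 0 of 8, beside 0.131%. At an unadjusted p of 0.05 it gave 6 of 8 lower at early neurula (background 13%) and 1 of 8 at early gastrula (background 3.78%). The block within the stage gave 3 of 8 lower at an unadjusted p of 0.05 at early neurula (background 8.49%) and 1 of 8 at early gastrula (background 4.54%), and 0 with an adjusted p under 0.05. The pooled spread of the 9-pair fit takes in the gastrula arrays, where hand1.L, isl1.S and nkx2-5.S had means under 4. Their standard errors at early neurula were smaller in it (0.38 for hand1.L, 0.52 for isl1.S, 0.24 and 0.11 for nkx2-5.S) than with the block inside the stage (0.51, 0.80, 0.38 and 0.18), where the adjusted p of hand1.L was 0.235.

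**Figure D3:**
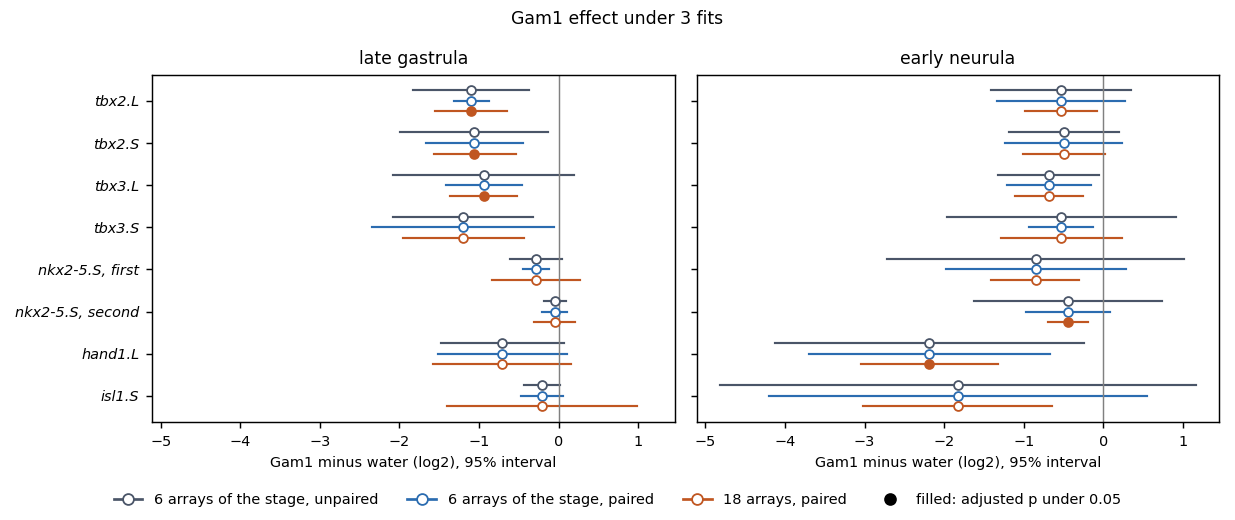
Gam1 minus water (log2, x axis) with its 95% interval for each probe set (y axis) at late gastrula and early neurula in 3 limma fits, namely the 6 arrays of the stage unpaired, the same 6 paired, and all 18 arrays with 9 pairs. Filled points mark an adjusted p under 0.05, which occur only in the 18-array fit, for tbx2.L, tbx2.S and tbx3.L at late gastrula and for hand1.L and the second probe set of nkx2-5.S at early neurula.

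Whether the Gam1 difference itself changed with stage was tested in the fit of 18 arrays, and no member passed. For hand1.L the difference at early neurula was larger than at early gastrula by -2.23 ± 0.86 (unadjusted p = 0.0220, adjusted p = 1, and 0.100 with 9 pairs). For tbx2.S late gastrula exceeded early gastrula by -0.90 ± 0.42 (unadjusted p = 0.0499, adjusted p = 1, and 0.327 with 9 pairs). Both had means under 4 in both treatments at early gastrula, so these contrasts set a later stage against values near the floor. They were the members lower at an unadjusted p of 0.05 between early gastrula and the later stages, beside 1.52% of all probe sets for early neurula and 0.859% for late gastrula. Between late gastrula and early neurula 0 members were, beside 0.453%. With 9 pairs, 5 members were lower at an unadjusted p of 0.05 for early neurula against early gastrula, 2 for late against early gastrula and 2 for early neurula against late gastrula, beside 7.65%, 6.31% and 3.92%. At an adjusted p of 0.05 the 3 comparisons of stages called 0 members, beside 0.00423% of all probe sets for late against early gastrula, 0.0466% for early neurula against early gastrula and 0.00423% for early neurula against late gastrula. With 9 pairs they called 0 members lower too, beside 0.106%, 0.36% and 0.0508%. The smaller differences of tbx2 and tbx3 at early neurula than at late gastrula are therefore not shown to differ between the stages.

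Averaged over the 3 stages, the Gam1 difference was negative for all 8 members and largest for hand1.L (-0.95 ± 0.35), tbx2.L (-0.74 ± 0.32) and isl1.S (-0.72 ± 0.42). Without replicate 1 the value was -0.63 for hand1.L and -0.36 for isl1.S, both of which had means under 4 at the gastrula stages that enter the average. The same was true of both probe sets of nkx2-5.S, and of tbx2.S and tbx3.L at early gastrula. For these the average and its error take in stages from which no direction is read. In the unpaired fit 0 of 8 were called and 5 were lower at an unadjusted p of 0.05, beside 0.0719% and 3.81% of all probe sets. In the 9-pair fit 5 of 8 were called lower and all 8 were lower at an unadjusted p of 0.05, beside 6.65% and 16.3% of all probe sets. These were tbx2.L (adjusted p = 0.00731), tbx3.L (0.0163), tbx2.S (0.0287), hand1.L (0.0294) and tbx3.S (0.0465). isl1.S (0.141) and the probe sets of nkx2-5.S (0.108 and 0.120) were not called. The 9-pair fit treats pairs of the same replicate number at different stages as independent. Yet arrays of the same number also deviated together between stages within a treatment (r from 0.301 to 0.760, against -0.477 to -0.085 for other numbers). Whether the pair differences are shared between stages was not tested, and the errors of these averages may be too small.

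At late gastrula and early neurula the long and short copies of a gene differed in their Gam1 differences by less than the SD over the 3 pairs. The Gam1 difference of tbx2.L minus that of tbx2.S averaged -0.04 at late gastrula (SD over 3 pairs 0.36) and -0.04 at early neurula (SD 0.20). For tbx3 the difference between the copies was 0.26 at late gastrula (SD 0.61, pairs from -0.23 to 0.93) and -0.16 at early neurula (SD 0.26). The 2 probe sets of nkx2-5.S differed by -0.41 at early neurula (SD 0.53). At early gastrula tbx2.S was under a mean of 4 and no comparison of the tbx2 copies is read. An exact test over 3 pairs cannot reach a p of 0.05, and these values are given without one.

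Members that come up at a stage were set against all other probe sets that come up at the same time. This comparison was chosen after the values had been seen and carries no test. Between early and late gastrula 2482 probe sets rose by at least 2 on the log2 scale (mean of the rise in Gam1 and in water embryos), among them the 4 of tbx2 and tbx3. The median Gam1 difference of the 2482 at late gastrula was -0.22, and 74.5% of them read lower in Gam1 embryos. The 4 members lay near the low end of that distribution, since only 4.31% of the rising probe sets had a lower value than tbx3.S, 5.2% than tbx2.L, 5.8% than tbx2.S and 7.37% than tbx3.L.

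Between late gastrula and early neurula 474 probe sets rose by as much, and 87.6% of them read lower in Gam1 embryos at early neurula, with a median of -0.66. The median was -0.79, -0.59 and -0.50 in the 3 pairs. Against these, hand1.L and isl1.S were low, with 2.32% and 5.06% of the rising probe sets below them. nkx2-5 and tbx3.L lay in the middle: 32.7% of the rising probe sets were lower than the first probe set of nkx2-5.S, 65.6% lower than the second and 47.3% lower than tbx3.L. The mean of isl1.S includes the -3.86 of replicate 1, while its pairs of replicates 2 and 3 (-0.46 and -1.17) stood beside pair medians of -0.59 and -0.50.

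**Figure D4:**
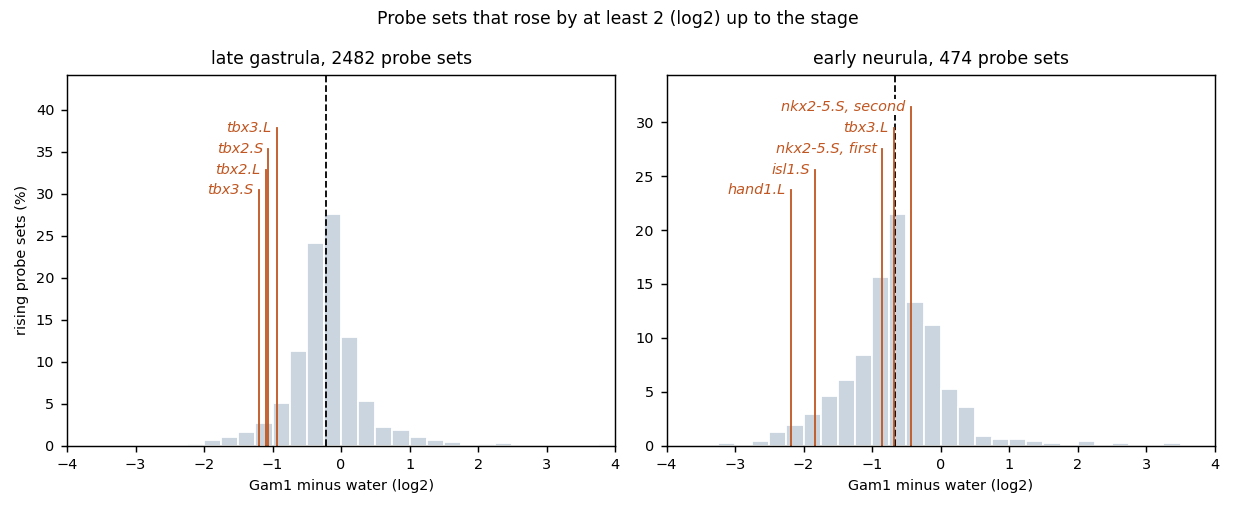
Distribution of the Gam1 minus water difference (log2, x axis) over all probe sets that rose by at least 2 up to late gastrula (2482) or up to early neurula (474), as a percentage of them per bin of 0.25 (y axis), with a dashed line at the median and lines at the members. Values beyond 4 are counted in the last bar. The 4 probe sets of tbx2 and tbx3 lie left of the bulk at late gastrula, and hand1.L and isl1.S do at early neurula, while nkx2-5.S and tbx3.L lie near the median of -0.66.

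Replicate pools differed in the members within a treatment. At early neurula water replicate 1 was the lowest of its group in 6 of 8 member probe sets and water replicate 3 the highest in 7 of 8, beside 33.2% and 35.0% of all probe sets. Gam1 replicate 2 was the highest in 6 of 8 and never the lowest. For hand1.L the water arrays alone spanned 6.65 to 8.15, and for the first probe set of nkx2-5.S 5.26 to 7.15.

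Other cardiac regulators were followed as a list of 26 genes, of which 15 were measured as 22 gene copies (1 probe set per copy). They include the GATA factors, foxc1 and foxc2, the mesp genes of early cardiac and presomitic mesoderm, and ets1, a factor of endothelium and cardiac mesoderm. At late gastrula 18 of 22 read lower in Gam1 embryos with a median of -0.33, and at early neurula 18 of 22 with a median of -0.46, where all 9149 measured symbols had medians of 0.02 and 0. At an unadjusted p of 0.05, 5 were lower at each of these stages and 0 higher, against 244 and 332 lower of the 9149, and 0 were called after adjustment. The smallest p-values at late gastrula were those of mespa.L (9.18 ± 0.24 in water and 8.50 ± 0.17 in Gam1 embryos, SD, n = 3), foxc2.S (10.07 ± 0.24 and 9.52 ± 0.10) and gata6.L (11.61 ± 0.04 and 11.36 ± 0.09). At early neurula they were those of ets1.L (9.65 ± 0.05 and 9.01 ± 0.23), gata6.L (11.61 ± 0.08 and 11.30 ± 0.13) and gata5.L (10.48 ± 0.20 and 9.94 ± 0.24). gata4, which encodes another GATA factor of heart mesoderm, differed by 0.03 and 0.16 in its 2 copies at late gastrula and by 0.08 and 0.19 at early neurula, higher in Gam1 embryos (unadjusted p from 0.188 to 0.899). In the 9-pair fit 3 of the 22 were called lower at each of these stages and 0 higher, beside 2.34% and 3.67% of the 9149 symbols called lower.

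At early gastrula, before most members were measurable, foxc1.L stood out of this list at 3.74 ± 0.34 in Gam1 against 5.15 ± 0.25 in water embryos. Its Gam1 mean thus lay under 4. The difference was -1.41 ± 0.23 (unadjusted p = 0.00151, adjusted p = 1, and 0.00604 with 9 pairs). By late gastrula it was -0.32 and at early neurula -0.24. foxc1 encodes a forkhead factor of mesoderm. Its signal was 11.49 in water and 11.17 in Gam1 embryos at late gastrula. At early gastrula the 9-pair fit called 2 of the 22 copies of this list lower and 0 higher, beside 0.142% and 0.0109% of all symbols. The other was foxc2.L, which differed by -0.81 ± 0.96 (unadjusted p = 0.435, and an adjusted p of 0.0439 with 9 pairs).

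Of 22 signals that induce or restrict the heart field, 18 were measured as 21 copies, with 12 lower and 9 higher at late gastrula and 8 lower and 13 higher at early neurula (medians -0.07 and 0.09). The copies with the smallest p at late gastrula and a mean of at least 4 were wnt11.S, pdgfa.S and fzd7.L. The non-canonical Wnt ligand wnt11.S differed by -0.81 ± 0.21 (adjusted p = 0.827, and 0.0310 with 9 pairs). The growth factor pdgfa.S differed by -1.66 ± 0.44 (adjusted p = 0.836, and 0.0403 with 9 pairs). The Wnt receptor fzd7.L differed by -0.24 ± 0.08 (adjusted p = 1, and 0.081 with 9 pairs). Another Wnt11 gene of the list, wnt11b.L, differed by 0.03 ± 0.36 at late gastrula and 0.15 ± 0.29 at early neurula (unadjusted p = 0.930 and 0.612). wnt8a.L, a canonical Wnt ligand, was higher by 0.52 ± 0.19 (unadjusted p = 0.0389, adjusted p = 1, and 0.0841 with 9 pairs). At early neurula the smallest p-values were those of pdgfra.L, the receptor for pdgfa (-0.84 ± 0.23, adjusted p = 0.536, and 0.0851 with 9 pairs), and fgf8.L (-0.35 ± 0.14, adjusted p = 0.747, and 0.0405 with 9 pairs). wnt11.S was lower at that stage as well, by -0.98 ± 0.41 (adjusted p = 0.763, and 0.0109 with 9 pairs).

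The T-box genes outside the members did not share the shift of tbx2 and tbx3 as a list. Of 9 copies of 6 genes, 4 were lower and 5 higher at late gastrula, and 2 lower and 7 higher at early neurula (medians 0.02 and 0.26). tbx1.L, also counted among the cardiac regulators, was lower at both stages, by -0.50 ± 0.20 and -1.01 ± 0.49. Its unadjusted p was 0.0525 and 0.0896, and its adjusted p with 9 pairs 0.305 and 0.0625. tbxt.2.S, a Brachyury copy of posterior mesoderm, was lower at late gastrula by -0.67 ± 0.15 (unadjusted p = 0.00498, adjusted p = 0.661, and 0.134 with 9 pairs), and vegt.S, a maternal and mesodermal T-box factor, was higher by 0.31 ± 0.11 (unadjusted p = 0.0360, adjusted p = 1, and 0.136 with 9 pairs). At early neurula vegt.S and vegt.L were higher by 0.51 ± 0.56 and 0.44 ± 0.36 (adjusted p = 0.949 and 0.917, and 0.0318 and 0.0409 with 9 pairs). The 9-pair fit thus called 2 of the 9 copies higher and 0 lower at that stage, beside 4.9% and 3.67% of all symbols. Of 13 listed genes of the contractile apparatus, 3 were measured. Of these, myh6.S (3.46 ± 0.78 in water embryos at early neurula) and mybpc3.S (at the floor of 2.07 at every stage) had means under 4 throughout. The third, actc1.L, which serves somites as well as heart, read 13.04 ± 0.59 in water and 12.41 ± 0.53 in Gam1 embryos at the last stage (adjusted p = 0.868, and 0.0429 with 9 pairs). At late gastrula it read 9.69 ± 0.96 and 8.45 ± 0.53 (adjusted p = 1, and 0.00715 with 9 pairs).

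Markers of other tissues moved with the members in part. Of 14 copies of lateral and ventral mesoderm genes, 13 were lower in Gam1 embryos at late gastrula and 8 at early neurula. At an unadjusted p of 0.05, 7 and 4 of them were lower, beside 2.67% and 3.63% of all symbols. Signals of a list were also summed unlogged, so its strongest probe sets weigh most. The summed signal (log2) of these 14 copies was 14.80 to 15.19 in Gam1 against 15.06 to 15.42 in water embryos at late gastrula. At early neurula it was 14.66 to 15.25 against 14.92 to 15.11. The lowest p-values were those of msx2.L (-0.79 ± 0.12), msx1.L (-0.65 ± 0.15) and foxf1.L (-1.21 ± 0.30) at late gastrula, genes of ventral ectoderm and lateral mesoderm (adjusted p = 0.458, 0.707 and 0.782, and 0.176, 0.0139 and 0.0078 with 9 pairs). Of 14 epidermal copies, 11 were lower and 3 higher at each of these stages. Their summed signals were 15.60 to 16.04 against 15.94 to 16.37 at late gastrula and 16.24 to 16.53 against 16.58 to 16.80 at early neurula. The widest difference at both stages was that of atp1b2.S, which was higher by 2.31 ± 0.92 and then by 4.62 ± 0.78. In water embryos it lay near the floor, with means of 2.29 and 2.27. In Gam1 embryos it read 4.60 ± 1.84 and 6.89 ± 1.53 (SD), so it reached a mean of 4 in that treatment only. Its adjusted p was 0.103 and then 0.00925 with 9 pairs, and 0.281 at early neurula in the unpaired fit. The other copy, atp1b2.L, was lower by -0.32 ± 0.28 and then by -0.40 ± 0.14 (adjusted p = 0.382 and 0.267 with 9 pairs). The smallest unadjusted p of the list at both stages was that of grhl3.S. It was lower by -0.48 ± 0.18 and then by -0.45 ± 0.07 (adjusted p = 0.00678 and 0.00478 with 9 pairs). In the unpaired fit it was called at neither stage (unadjusted p = 0.0384 and 0.000818, adjusted p = 0.217 at early neurula). The other copy, grhl3.L, differed by -0.34 ± 0.22 and then by -0.10 ± 0.12 (adjusted p = 0.0414 and 0.38 with 9 pairs). foxi1.L differed by 0.96 ± 0.39 at late gastrula (adjusted p = 0.151 with 9 pairs) and by -0.18 ± 0.14 at early neurula. The eye field list was lower in 6 of 6 copies at late gastrula (12.15 to 12.62 against 12.79 to 12.92) and the neural crest list in 10 of 10 (13.11 to 13.79 against 13.47 to 13.83). At early neurula 5 of 6 eye field copies were lower (12.31 to 13.13 against 13.13 to 13.30), and so were 9 of 10 neural crest copies. The summed signal of the neural crest list overlapped (13.53 to 13.84 against 13.49 to 13.80). That sum mostly follows pax3.L (13.31 ± 0.33 in Gam1 and 13.05 ± 0.11 in water embryos), the 1 copy that was higher. The 9-pair fit called 4 of the 10 neural crest copies lower at late gastrula and 5 at early neurula, beside 2.34% and 3.67% of all symbols. Neural plate (8 of 8 copies), somite mesoderm (7 of 7) and anterior endoderm (6 of 7) were also lower at late gastrula, and 7, 6 and 5 copies of these lists were at early neurula. Their summed signals at late gastrula were 14.54 to 14.79 against 14.81 to 14.94, 12.34 to 12.75 against 12.70 to 13.37 and 14.16 to 14.44 against 14.19 to 14.60. Cement gland genes were lower in 5 of 6 copies at both stages, and cranial placode genes in 1 of 2 and then 2 of 2. Some copies stand in more than 1 list, so the counts of the lists are not independent. The gata6 copies of anterior endoderm and the mespa copies of somite mesoderm are also cardiac regulators. The otx2 copies are in the eye field and cement gland lists, and the placode copies (dlx5.L and foxi1.L) are also epidermal copies. None of the 14 lateral mesoderm copies, 2 of 6 eye field copies and 1 of 10 neural crest copies had a mean under 4 in Gam1 embryos at late gastrula. The part of these tissues in the differences of the members was not tested.

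The genes whose signal was most like that of a member over the 18 arrays were found by Pearson's r among the 11385 probe sets that had 1 symbol and reached a mean of 4 in a group. The arrays share their stages, so r mostly follows which stage a gene comes up at, and it is given as a description with no test. For hand1.L they were celf3.L (0.973), krt19.L (0.969) and elovl2.L (0.955), for isl1.S mycbpap.L (0.981), elovl2.L (0.969) and ezr.L (0.964), and for the first probe set of nkx2-5.S slit2.S (0.978), xylt1.L (0.965) and fut6.S (0.964). For tbx2.L they were purb.S (0.987), gata3.S (0.986) and gata2.L (0.985), and for tbx3.S pno1.L (0.985), nol11.L (0.983) and timm9.L (0.981). Among the members, r was 0.90 to 0.99 within nkx2-5, hand1 and isl1 and 0.91 to 0.97 within tbx2 and tbx3, and between these 2 sets it ran from 0.45 (hand1.L with tbx2.L) to 0.84 (the second probe set of nkx2-5.S with tbx3.L).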

How the data were processed

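RNA of 18 pools of 20 embryos was measured on Affymetrix X. laevis arrays. The authors deposited log2 values that, per the methods, had been quantile normalized in Bioconductor. Background correction and the combining of probes into a probe set are not given in the sources used here. Every array and 23630 of 23701 probe sets were used, without 71 Affymetrix controls. Symbols came from the platform annotation. The members, the gene lists and the tests were chosen with earlier results of these data known.

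The Gam1 difference of a stage came from an unpaired limma model of its 6 arrays (limma 3.58.1, R 4.3.3, moderated test, spread allowed to follow the signal). Benjamini-Hochberg adjustment took in all 23630 probe sets, and the threshold was 0.05. The stage differences, the mean over stages and the course in each treatment were contrasts in fits of 18 or 9 arrays. In same-numbered Gam1 and water arrays of a stage the deviations from the group mean correlated at 0.686 to 0.941, against -0.620 to -0.233 for other numbers, and the methods tie replicates to egg clutches, so the numbers pair the arrays and the replicate block was run as an alternative. Further alternatives were the Student test that the methods name, a fit with no trend, minimum means of 4 or 6, median centring, cyclic loess, all arrays unpaired, and leaving out each array or replicate number. The paired fit without a replicate number and the unpaired stage fit without both its arrays were added after seeing the data. The fits were tested on simulated data.

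All member probe sets are named. In the lists of cardiac regulators, signals, other T-box genes and lateral mesoderm, copies were named by the smallest unadjusted p. They had a mean of at least 4 in a group. All measured contractile genes are named. The other tissue lists are given by counts or summed signals, without naming their copies of smallest p apart from grhl3.S. Every list used 1 probe set per copy (the highest mean). gata4, foxc1 after early gastrula, wnt8a.L, wnt11b.L, wnt11.S at early neurula, tbx1.L, atp1b2.S, atp1b2.L, grhl3.S, foxi1.L and pax3.L were named after their values were seen. The same holds for foxc2.L at early gastrula, sfrp5.S, vegt.S and vegt.L at early neurula, and grhl3.L. Arrays give no counts, so the number of arrays limits the precision. With 3 arrays against 3, an exact two-sided permutation test cannot go below 0.1. Other computing used Python 3.11.15 (pandas 2.3.3, numpy 2.4.6, matplotlib 3.10.9, scipy 1.17.1).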

Additional observations from a re-analysis of the deposited data

How the results depend on the processing

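Of the values of single members under the alternatives, 616 kept their direction and their side of the threshold, 15 passed it only under the alternative, 24 no longer passed it and 6 changed sign. The 24 losses were all rises over the stages with 1 replicate number left out (4, 11 and 9 without replicates 1, 2 and 3). With the replicate block of 9 pairs the member probe sets called were 3 at late gastrula, 2 at early neurula and 5 for the mean over the stages (main fit of each: 0). At an unadjusted p of 0.05 this block gave 1, 6 and 8 at early gastrula, early neurula and over the stages, beside 3.78%, 13% and 16.3% of all probe sets. Apart from the rise of tbx2.S in Gam1 embryos after late gastrula (adjusted p = 0.0286 with the block over the stages), the replicate block changed no other call of a member. Without replicate 1 or 2 this 9-pair block called 1 at early neurula. At an unadjusted p it gave 7 and 4 at early neurula without replicates 2 and 3, 5 at late gastrula without replicate 2 and 1 at early gastrula without replicate 2. The block within the stage gave 1 at early gastrula and 5 at late gastrula at an unadjusted p, and the Student test that the methods name gave 0 at early neurula. With a minimum mean of 4, 2 of the members left in the fit were called from late gastrula to early neurula in each treatment, and the median change at early gastrula was -0.50 over 2 probe sets. Leaving out an array or a replicate number moved the members called from late gastrula to early neurula between 0 and 5 in Gam1 and between 0 and 2 in water embryos. It moved the members at an unadjusted p of 0.05 between 0 and 5 at late gastrula, 0 and 3 at early neurula and 2 and 4 over the stages, and the early gastrula median from -0.24 to 0. The sign changes were in tbx3.S at early gastrula (-0.78 to 0.16, with 0.03 without Gam1 replicate 1) and in differences between stages: late minus early gastrula for the second nkx2-5.S probe set (-0.11 to 0.01) and isl1.S (-0.16 to 0.01), early neurula minus early gastrula for tbx2.L (-0.14 to 0.26) and tbx3.S (-0.29 to 0.14). The cause of these moves was not tested, beyond the fewer arrays or probe sets that some alternatives leave. For fits that leave out arrays, replicate numbers or probe sets, the share of all probe sets called is not given. Their counts are therefore not read as a result about the members. Values near the floor of 2.07 limit what can be said of nkx2-5, hand1 and isl1 before early neurula.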
